A study of Mus musculus with 24 samples.

Results

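The change between day 2 and day 5 was examined in cultured mouse osteoblasts, the bone-forming cells, labelled as lacking β-arrestin 2 (gene Arrb2). The arrays were chosen by their titles: 3 knockout arrays of day 5 and 3 of day 2, 6 of the 24 arrays in the series. Cells came from the calvaria, the flat bones of the skull vault, of pups aged 7 to 10 days. Both genotypes, wild type and β-arrestin 2 knockout, were on the C57BL/6J background, and cells were used at passage 2 once they had become confluent. From day 3 the medium held ascorbic acid (50 mg/L) and β-glycerophosphate (5 mM), so the day 2 cells had not received the differentiation medium and the day 5 cells had. Time in culture and the change of medium therefore cannot be told apart. The labels describe the 3 replicates as independent preparations and do not say how many pups each held. Each sample gave 100 ng of total RNA to an Affymetrix Mouse Gene 2.0 ST array, and the values are log2 RMA expression values as deposited by the authors. A bulk culture was measured, so fewer cells of a type and less RNA per cell cannot be told apart.

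Osteoblast precursors in culture first multiply, then lay down a matrix rich in type I collagen, and mineralise it late. Ascorbic acid is a cofactor of the enzymes that hydroxylate collagen, and β-glycerophosphate is a source of phosphate for mineral. Amino acid supply is watched by a pathway in which uncharged tRNA leads to translation of the transcription factor ATF4, and ATF4 raises the genes of amino acid uptake, amino acid synthesis and tRNA charging. β-arrestin 2 binds activated G protein-coupled receptors, among them the parathyroid hormone receptor of osteoblasts, and ends or redirects their signals.

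The targeted gene went against the labels. Arrb2 read 6.96, 7.42 and 6.89 in replicates 1 to 3 of the arrays labelled knockout on day 2, and 6.64, 6.79 and 6.64 on day 5. The arrays labelled wild type read 5.88 ± 0.13 (SD, n = 3) on day 2 and 5.11 ± 0.10 (SD, n = 3) on day 5. The labelled knockout was thus higher, by 1.21 on day 2 (adjusted p = 0.0206, limma) and by 1.58 on day 5 (adjusted p = 0.000357, limma). Arrb2 was the 1 gene of 14892 called between the labelled genotypes on each of these days (0.00672%). The labels do not say which part of the gene was removed, so whether the probes lie in it was not tested. Genotype is given as labelled throughout, and the comparison of day 5 with day 2 lies within arrays of 1 label. Within it Arrb2 did not pass the threshold (log2 change -0.40 ± 0.18 SE, adjusted p = 0.284), nor did Arrb1, the gene of the other β-arrestin (0.01 ± 0.23 SE, adjusted p = 0.989).

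Between day 2 and day 5 of the labelled knockout, 412 of 14892 tested genes changed (2.77%; limma, Benjamini-Hochberg adjusted p under 0.05). Of these, 229 rose (1.54%) and 183 fell (1.23%), and 163 changed by at least 2-fold (1.09%), 82 upward and 81 downward. Changes of at least 4-fold were made by 8 genes upward and 16 downward. The median size of a called change was 0.88 on the log2 scale and the smallest was 0.40. The 3 arrays of a day lay wholly above or below those of the other day for 411 of the 412, the exception being Cenpq, against 3416 of all 14892 genes (22.9%). The calls were made on these same arrays, so that contrast is not independent evidence. All 412 moved the same way in the 3 pairs of equal replicate number. For the 411 this follows from the separation of the days and adds no support. With the replicate number as a block the count was 695 (4.67%), of which 411 rose (2.76%) and 284 fell (1.91%). A fit on the 6 arrays alone, which has few degrees of freedom, called 49 genes, 15 upward and 34 downward. Leaving out 1 array gave between 124 and 408 genes, with 176 without day 2 replicate 2, 230 without day 2 replicate 3, 227 without day 5 replicate 2 and 124 without day 5 replicate 3. Without day 2 replicate 1 the rises numbered 142. In all 6 of these fits 91 genes were called. Of the 78 named genes that passed, 25, 29 and 23 lost their call without replicates 1 to 3 of day 2, and 9, 27 and 36 without replicates 1 to 3 of day 5.

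The largest falls were in genes of amino acid supply. Of 64 tested genes in 4 lists, amino acid transporters, enzymes of amino acid and folate metabolism, cytosolic tRNA synthetases and regulators of the amino acid stress response, 37 fell and 0 rose (57.8%, against 1.23% of all tested genes). Their median log2 change was -0.84, against 0.00 for all tested genes, and 57 were negative. These 37 made up 20.2% of all genes that fell. Day 2 and day 5 arrays did not overlap for 51 of the 64, against 22.9% of all tested genes. The count of falls was between 18 and 33 when 1 array was left out (18 without day 5 replicate 3 and 23 without day 2 replicate 2), 17 in the fit on 6 arrays, and 40 with the block. Over all 14892 tested genes 34 fell in the fit on 6 arrays and 1.91% with the block. In each of the fits with 1 array left out 17 of the 37 fell. The lists were drawn up with earlier results of these data known and are not independent evidence of this direction.

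Among the transporters, 5 of 15 fell and the list's median was -0.71. Slc7a3, a carrier of arginine and lysine, read 8.51, 8.33 and 8.22 in replicates 1 to 3 on day 2 and 4.54, 5.02 and 4.32 on day 5. It fell by 3.73 ± 0.33 SE on the log2 scale, or 13.3-fold (adjusted p = 2.6e-06), the largest measured fall among the called genes. Slc7a11, which brings in cystine in exchange for glutamate, read 8.08, 7.72 and 7.84 on day 2 and 4.20, 4.90 and 4.13 on day 5. The fall was 3.47 ± 0.40 SE, or 11.1-fold (log2 change -3.47, adjusted p = 8.53e-05), and on day 5 each of the 3 arrays lay more than 2 log2 units below the lowest of day 2. For both genes 2 of the 3 day 5 values lay below the medians of their arrays, and with no detection call the exact size and rank of these falls are uncertain. Slc7a5, the carrier of leucine and other large neutral amino acids, averaged 11.87 ± 0.12 (SD, n = 3) on day 2 and read 9.37, 9.85 and 9.35 on day 5 (log2 change -2.35 ± 0.38 SE, adjusted p = 0.00216). Slc3a2, the heavy chain that pairs with both Slc7a5 and Slc7a11, went from 11.55, 11.50 and 11.24 to 10.10, 10.40 and 9.88 (-1.30 ± 0.17 SE, adjusted p = 0.000253). Slc7a1, a further arginine and lysine carrier, changed by -1.74 ± 0.27 SE (adjusted p = 0.00175). These 5 kept their call in each fit that left out 1 array. Slc38a2, a carrier of small neutral amino acids, did not pass (0.01, adjusted p = 0.988), and neither did Slc1a5, a glutamine carrier (-0.76, adjusted p = 0.175), which passed with the block (adjusted p = 0.026), as did Slc38a1 (-0.75, adjusted p = 0.177, with the block 0.0439).

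Of the enzymes, 11 of 15 fell and the median was -1.30. Cth, cystathionine gamma-lyase, which makes cysteine from methionine's sulphur, had the smallest adjusted p among the named genes. Its values were 9.22, 9.38 and 9.06 on day 2 and 5.99, 6.43 and 6.09 on day 5, a change of -3.05 ± 0.19 SE (adjusted p = 9.05e-09), with narrow and well separated groups. The serine synthesis enzymes fell as a set of 3. Phgdh went from 8.49, 8.69 and 8.32 to 7.03, 6.95 and 7.07 (-1.48 ± 0.26 SE, adjusted p = 0.00431). Psat1 changed by -1.28 (adjusted p = 0.0072) and Psph by -1.69 (adjusted p = 0.000253). In the mitochondrial folate cycle Mthfd2 changed by -1.79, Aldh1l2 by -2.15, Shmt2 by -1.30 and Mthfd1l by -0.95. Asns, which makes asparagine, went from 10.67, 10.79 and 10.45 to 9.15, 9.22 and 8.65 (-1.63 ± 0.29 SE, adjusted p = 0.00421). Pck2, the mitochondrial phosphoenolpyruvate carboxykinase, changed by the same -1.63, and Gpt2, an alanine aminotransferase, by -0.97. Cbs, the enzyme just before Cth in the same sulphur pathway, was among the 4 that did not pass, at 0.01. It read 4.68, 4.88 and 4.57 and then 4.79, 4.71 and 4.65, close to the medians of its arrays. An unchanged level of Cbs is therefore not shown. The call was lost without at least 1 array for Aldh1l2 (adjusted p up to 0.112, the exception being day 5 replicate 2), for Gpt2 (without any 1 of the 6), for Mthfd1l (0.0689 at most, without day 2 replicate 3 or day 5 replicate 3) and for Mthfd2 (0.0604 without day 5 replicate 3).

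Cytosolic tRNA synthetases load each tRNA with its amino acid, and 10 of 18 fell, with a median of -0.67. Their changes spanned a narrower range than those of the transporters, -1.13 to 0.11 against -3.73 to 0.46. The medians were close, as that of the transporters was -0.71. Nars, which loads asparagine, read 11.66, 11.70 and 11.54 on day 2 and 10.78, 10.72 and 10.20 on day 5 (-1.07 ± 0.17 SE, adjusted p = 0.00216). Lars, for leucine, changed by -1.08 (adjusted p = 0.00275) and Cars, for cysteine, by -1.13 (adjusted p = 0.00696, but 0.0598 without day 5 replicate 3). The other 7 were Iars, Tars, Yars, Gars, Sars, Wars and Farsa, at -0.96, -0.85, -0.79, -0.77, -0.74, -0.66 and -0.44. Each of these 7 lost the call without day 5 replicate 3, and without 1 or more of the other arrays in all but Tars. The fit on 6 arrays alone called 0 of the 18. Those for glutamine (Qars, 0.11), lysine (Kars, -0.04) and histidine (Hars, -0.10) did not pass, and Mars1, for methionine, passed only with the block (-0.69, adjusted p = 0.0566, with the block 0.0445).

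The regulators followed, with 11 of 16 falling and a median of -1.15. Atf4 itself read 9.78, 9.76 and 9.47 on day 2 and 8.52, 8.77 and 8.02 on day 5 (-1.23 ± 0.26 SE, adjusted p = 0.0111, lost without day 2 replicate 2 or day 5 replicate 3). Trib3, a pseudokinase induced by ATF4, read 8.59, 8.50 and 7.84 and then 5.82, 6.09 and 5.86 (-2.38 ± 0.25 SE, adjusted p = 3.19e-05). Chac1, an enzyme that breaks down glutathione, changed by -2.17 (adjusted p = 0.00427). Trib3, Chac1 and Eif4ebp1, an inhibitor of cap-dependent translation (-1.35, adjusted p = 0.000366), kept their calls in each fit with 1 array left out. The lipoprotein receptor gene Vldlr (-1.81), the transcription factor genes Atf5 (-1.53), Ddit3 (-1.42) and Cebpg (-0.84), Vegfa (-1.25), the phosphatase subunit gene Ppp1r15a (-0.99) and Stc2 (-0.81) also fell, and each lost its call without 2 or more of the 6 arrays. Vegfa was lowest in day 5 replicate 3, at 7.58, against 8.90 and 9.44. Ddit4, another stress gene, lay at 0.47 and did not pass. The dot plot of these 4 lists shows each tested member with its standard error.

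**Figure D1:**
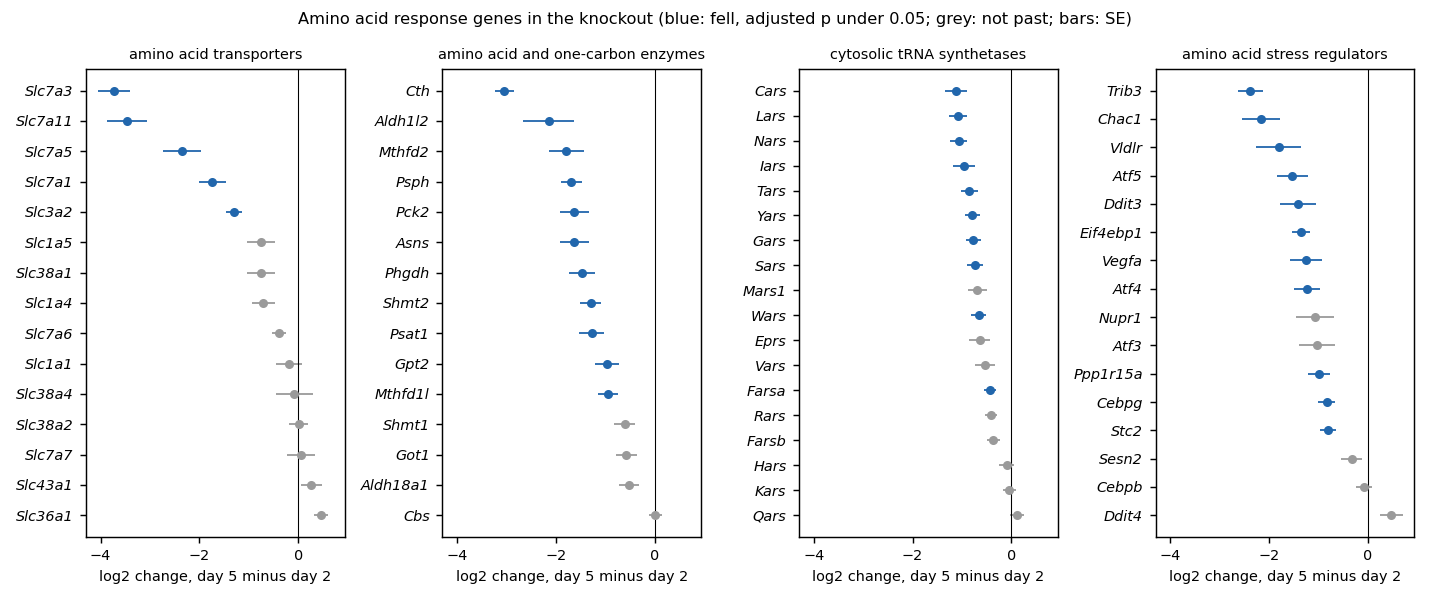
Log2 change from day 2 to day 5 in the labelled knockout (x axis) for each tested member of the 4 amino acid lists (rows), with SE as bars. Blue points fell at an adjusted p under 0.05 and grey points did not pass; 37 of 64 are blue and none of the 64 rose.

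Promoter sequence was looked up for these genes, because ATF4 with a C/EBP partner is known to bind the CARE motif, TGATGNAA. The motif was searched on both strands of the RefSeq windows (GRCm38.p6) that run from 250 bases before a gene's start to 50 bases after it. Of all 32851 windows 3.97% held a match, and of 11602 tested genes with a window 2.97% did. Among genes of the 4 lists 15 of 50 did (30.0%), namely 10 of the 28 that fell and 5 of the 22 that did not pass. The lists gather genes of the pathway that ATF4 drives. Their share is therefore shaped by the choice of genes and is not independent evidence. Over the whole table a match was present for 21 of 149 genes that fell (14.1%), 5 of 176 that rose (2.84%) and 2.83% of those that did not pass. The 21 include the 10 genes of the lists. Beyond the lists, 11 genes that fell held the motif: Cyb5r2, Rab39b, Fgf21, Creb5, Avil, Arhgef2, Hax1, Herpud1, Jdp2, Arl14ep and Gtpbp4. A match describes these letters only and is no measured binding site. Slc7a11 held 2 matches, 1 on each strand, and is shown with the 250 bases before its start (chr3:50443614-50443863, minus strand, read toward the gene), with both matches in capitals.
Slc7a11: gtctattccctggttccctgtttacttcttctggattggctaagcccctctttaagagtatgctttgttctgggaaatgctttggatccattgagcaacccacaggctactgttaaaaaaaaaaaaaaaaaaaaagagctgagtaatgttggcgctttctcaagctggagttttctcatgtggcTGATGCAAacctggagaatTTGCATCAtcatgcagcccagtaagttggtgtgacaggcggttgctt

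The other 9 genes of the lists that fell and held a match are shown by 30-base windows, read along the strand of the match, with the match in capitals, so that the shared core can be compared. They are Trib3 (chr2:152344028-152344057, plus strand), Chac1 (chr2:119351038-119351067, minus), Vldlr (chr19:27216809-27216838, minus), Asns (chr6:7693214-7693243, minus), Pck2 (chr14:55540152-55540181, minus), Iars (chr13:49682126-49682155, minus), Tars (chr15:11399655-11399684, plus), Yars (chr4:129189895-129189924, plus) and Gars (chr6:55037960-55037989, minus).
Trib3: ccccgcccggcTGATGTAAacctgagctaa
Chac1: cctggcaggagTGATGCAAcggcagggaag
Vldlr: gctaggagcgcTGATGCAActattgctgct
Asns: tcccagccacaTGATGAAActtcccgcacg
Pck2: ctgtaagatacTGATGTAActttgaaggct
Iars: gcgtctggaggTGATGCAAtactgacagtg
Tars: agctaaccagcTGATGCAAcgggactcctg
Yars: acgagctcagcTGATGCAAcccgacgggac
Gars: cgcccggtgcaTGATGAAAtagcgcagcca

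In lists of related stress pathways 1 gene each passed, against 2.77% of all tested genes. Of 19 tested chaperones and folding enzymes of the endoplasmic reticulum, 1 fell and 0 rose, with a median of -0.06. The 1 was Herpud1, a component of the degradation machinery there, which read 10.30, 10.27 and 10.07 and then 9.33, 9.54 and 9.33 (-0.81, adjusted p = 0.014, lost without day 2 replicate 1, day 2 replicate 2 or day 5 replicate 3). Of 17 tested antioxidant genes under the factor NRF2, the 1 that fell was Slc7a11, and the median was 0.03, while with the block 1 rose and 2 fell, and 2 members were called without day 5 replicate 1. The antioxidant response element, searched as TGACNNNGC, was present in 5 of the 12 promoter windows of that list (41.7%) and in 16.5% of windows of tested genes, and Slc7a11 held none.

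Large falls were also measured outside the amino acid lists. Rasgrp3, an exchange factor that activates Ras, read 9.63, 9.73 and 9.43 on day 2 and 8.03, 6.75 and 6.25 on day 5 (-2.58 ± 0.45 SE, adjusted p = 0.00376), with replicate 1 the highest on day 5. Rgs4, which shortens signals of G protein-coupled receptors, read 10.32, 9.41 and 9.68 and then 8.16, 7.24 and 7.27 (-2.25 ± 0.32 SE, adjusted p = 0.000788), so replicate 1 was the highest on both days. Grk6, a kinase that marks activated receptors for arrestin binding, was the other member of its list of 19 arrestins, receptor kinases and RGS genes to fall (-0.53, adjusted p = 0.0364, lost without 5 of the 6 arrays). Over all tested genes 1.23% fell. The secreted factor gene Fgf21 changed by -2.04 (adjusted p = 0.00275) and Rab39b, a small GTPase of vesicle traffic, by -2.14 (adjusted p = 8.53e-05). Ostn, osteocrin, a peptide made by osteoblasts, read 5.84, 7.12 and 5.85 and then 3.29, 4.13 and 4.06 (-2.44 ± 0.44 SE, adjusted p = 0.00447). Its day 5 values lay below the medians of their arrays, so the size of its fall is uncertain, and the same held for Trim66 (-1.69). For Fgf21 and Car6 2 of the 3 day 5 values lay below. Metabolic and other enzymes in this group were Car6, a secreted carbonic anhydrase (-2.38), Cyb5r2, a cytochrome b5 reductase (-2.22), and Acot2, a mitochondrial acyl-CoA thioesterase (-1.77). On day 5 Cyb5r2 read 4.70, 4.94 and 4.61, a little above the medians of its arrays, so the size of its fall is uncertain too. Cdsn, a cell adhesion protein known from skin, changed by -2.28 (adjusted p = 0.0139, lost without day 2 replicate 2 or day 5 replicate 2).

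Among feedback genes of the BMP and TGF-β pathways, 6 of 24 fell by day 5, against 1.23% of all tested genes. These pathways act through Smad proteins and induce their own inhibitors, of which Smad6 and Smad7 act inside the cell and noggin (Nog) binds BMPs outside it. In this list 0 rose and the median was -0.44. With 1 array left out 2 to 5 members were called, 2 without day 2 replicate 2 or day 5 replicate 3 and 3 without day 2 replicate 3. Smad7 read 8.22, 8.35 and 8.36 on day 2 and 7.16, 7.14 and 6.56 on day 5 (-1.36 ± 0.23 SE, adjusted p = 0.00296), and it kept its call in each fit with 1 array left out. Smad6 read 8.01, 8.94 and 8.58 and then 7.38, 7.31 and 7.50 (-1.11, adjusted p = 0.00947, but 0.0687 without day 2 replicate 2). The other 4 were Nog (-1.33), the BMP target Atoh8 (-1.17), the matricellular gene Ccn2 (-1.04) and the Smad co-repressor Skil, which read 8.23, 7.78 and 8.08 and then 7.14, 7.41 and 6.54. Each of those 4 lost its call without 3 or more of the 6 arrays, with adjusted p up to 0.188.

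Rises were led by genes of the extracellular matrix. Mmp13, the collagenase of bone and cartilage, read 6.20, 8.06 and 9.38 on day 2 and 10.53, 11.71 and 12.14 on day 5. The replicates differed widely on day 2 but each rose, by 3.57 ± 0.75 SE on average, or 11.9-fold (adjusted p = 0.0111, lost without day 2 replicate 1 or day 5 replicate 3, highest 0.0765). Lum, lumican, a small leucine-rich proteoglycan that binds collagen fibrils, read 7.11, 9.66 and 9.16 and then 10.01, 11.80 and 12.02 (2.64 ± 0.59 SE, adjusted p = 0.018). Replicate 1 was the lowest on both days for both genes. Dpt, dermatopontin, another fibril-associated protein, read 4.27, 6.14 and 4.74 and then 6.63, 8.46 and 7.33 (2.43 ± 0.56 SE, adjusted p = 0.0217). Its day 2 value in replicate 1 lay below the median of that array, so the size of its rise is uncertain. Lum and Dpt lost their calls without 3 and 4 of the 6 arrays, with adjusted p up to 0.119 and 0.124, among them day 2 replicate 1, day 5 replicate 2 and day 5 replicate 3 for both. Paired lines for these genes and for the leading falls are drawn in the plot of leading genes.

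**Figure D2:**
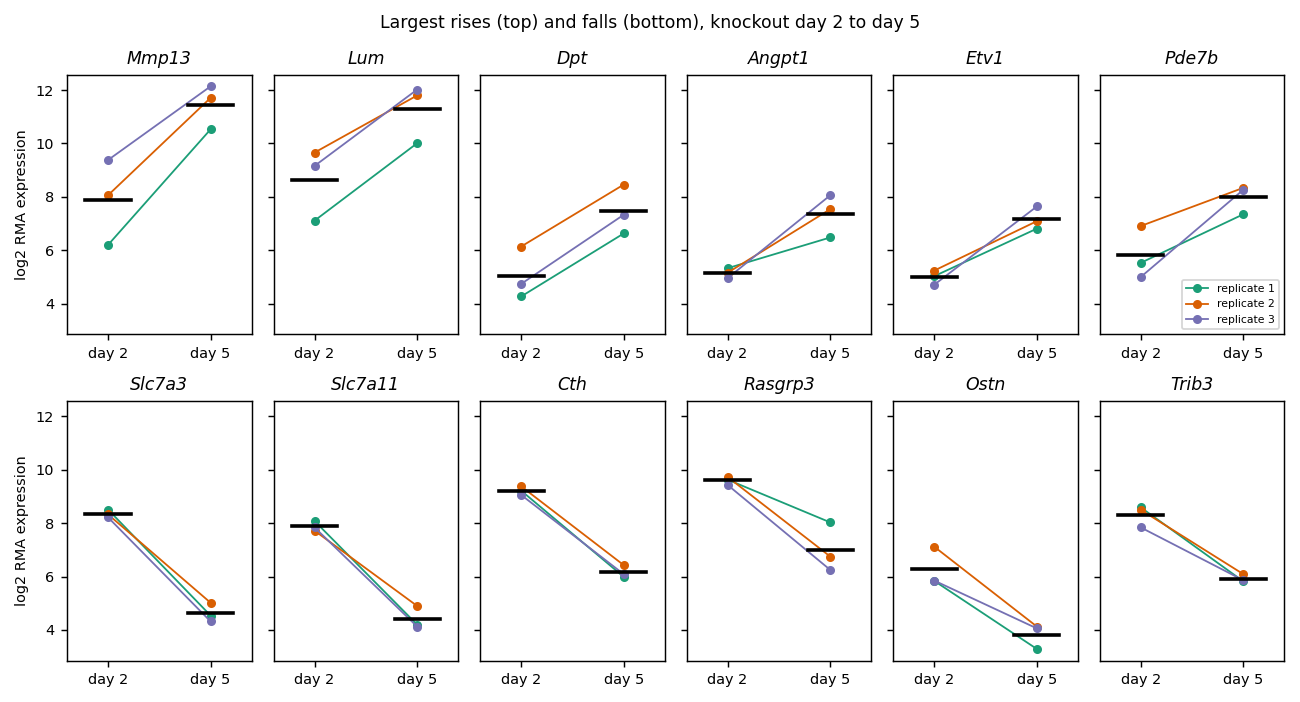
Log2 RMA expression (y axis) on day 2 and day 5 of the labelled knockout for the 6 largest rises (top) and 6 largest falls (bottom) by the naming rule. Coloured lines join arrays of equal replicate number and black bars are means of 3 arrays. The naming rule requires that day 2 and day 5 do not overlap, so this holds in all 12 panels. Day 2 values of Mmp13 range from 6.20 to 9.38 while those of Slc7a3 range from 8.22 to 8.51.

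Other matrix lists held 1 to 3 rises each, where 1.54% of all tested genes rose. Of 15 tested small leucine-rich proteoglycans 3 rose, all 15 were positive and the median was 0.38. Beside Lum these were Aspn, asporin (1.11, adjusted p = 0.0294), and Ecm2 (1.08, adjusted p = 0.0425), both lost without 4 or more of the 6 arrays. The count of this list was 0 without day 5 replicate 2 or 3, 1 without any single array of day 2, and 5 without day 5 replicate 1. Of 11 fibrillar collagens Col3a1, the type III chain, rose, from 10.32, 10.50 and 10.43 to 11.52, 11.73 and 11.78 (1.26 ± 0.21 SE, adjusted p = 0.003), in each fit with 1 array left out as well. Col1a1 and Col1a2, the type I chains, were already near the top of the scale and did not pass (0.25 and 0.42, adjusted p = 0.634 and 0.402). Of 20 genes of collagen hydroxylation and cross-linking 2 rose, Loxl3, a lysyl oxidase (1.10, adjusted p = 0.0089), and Pcolce, which aids procollagen cleavage (0.58, adjusted p = 0.0208). P4ha2, a prolyl hydroxylase subunit, fell in the same list (-0.56, adjusted p = 0.0296). Of 21 matrix proteases and inhibitors 3 rose: Mmp13, the aggrecan-cleaving Adamts4 (1.02, adjusted p = 0.0183) and Mmp23 (0.89, adjusted p = 0.0138), and with the block 4 rose and 1 fell. That count was 0 without day 5 replicate 3 and 1 without day 2 replicate 2, day 2 replicate 3 or day 5 replicate 2. Calls of Loxl3, Pcolce, P4ha2, Adamts4 and Mmp23 were each lost without 2 to 5 of the 6 arrays. A further pair of secreted proteins stood among the 20 largest rises, Plat, the tissue plasminogen activator, and Cpxm1, a carboxypeptidase-like protein. Plat read 8.24, 7.52 and 8.69 and then 10.00, 10.12 and 9.51 (1.73 ± 0.30 SE, adjusted p = 0.00373). Cpxm1 changed by 1.80 (adjusted p = 0.011, up to 0.0676 without 1 of day 2 replicate 3, day 5 replicate 2 and day 5 replicate 3).

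Several secreted signals also rose. Angpt1, the activating ligand of the receptor Tie2, read 5.33, 5.16 and 4.96 on day 2 and 6.48, 7.54 and 8.06 on day 5 (2.21 ± 0.37 SE, adjusted p = 0.00316). Rspo2, a secreted enhancer of Wnt signalling, read 6.32, 6.27 and 5.97 and then 7.15, 7.50 and 8.06 (1.38 ± 0.24 SE, adjusted p = 0.00373). Both kept their calls in each fit with 1 array left out. Hgf, hepatocyte growth factor, read 5.47, 6.18 and 6.07 and then 6.98, 8.08 and 7.13 (1.49, adjusted p = 0.0128, lost without day 2 replicate 1 or day 5 replicate 2). The list of 36 growth factors and receptors held 3 rises, Angpt1, Hgf and Fgfr1 (0.69, adjusted p = 0.0439), and 1 fall, Hbegf, an EGF receptor ligand. Hbegf read 10.46, 10.15 and 10.47 and then 9.87, 9.43 and 7.87 (-1.30, adjusted p = 0.0493), with day 5 replicate 3 well below the others. With the block 7 members rose and 2 fell. Of 30 Wnt pathway genes 2 rose, Rspo2 and the feedback gene Axin2 (0.70, adjusted p = 0.0185), and the median was -0.01. For both lists the shares over all tested genes were 1.54% rising and 1.23% falling, or 2.76% and 1.91% with the block. Fgfr1 and Hbegf lost the call without 5 of the 6 arrays and Axin2 without 4.

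Other genes that rose with their calls kept in each fit with 1 array left out included 2 linked to cyclic AMP or G protein signalling. Pde7b, which degrades cyclic AMP, read 5.53, 6.91 and 5.00 and then 7.35, 8.34 and 8.27 (2.17 ± 0.40 SE, adjusted p = 0.00571). It was the 1 of 17 tested phosphodiesterases that changed, where 2.77% of all tested genes did. Mrgprf, an orphan G protein-coupled receptor, had narrow groups, 5.93, 6.27 and 6.64 and then 8.13, 8.36 and 8.23 (1.96 ± 0.23 SE, adjusted p = 8.53e-05). The ETS transcription factor gene Etv1 read 5.03, 5.24 and 4.71 and then 6.81, 7.09 and 7.64 (2.19 ± 0.29 SE, adjusted p = 0.000403). Trib2, a pseudokinase of the same family as Trib3, rose by 1.67 (adjusted p = 0.00376) while Trib3 fell. Sesn3, a sestrin of the stress and nutrient response, rose by 1.66, Ndnf, a secreted factor, by 1.67, the neuronal membrane protein gene Slitrk6 by 1.99 and Pcbd1, an enzyme of tetrahydrobiopterin recycling, by 1.56. On day 2 Slitrk6 read 4.43, 4.27 and 4.69 and Pcbd1 4.79, 4.23 and 4.29. These values lay below or close to the medians of their arrays, so the sizes of both rises are uncertain. The remaining genes among the 20 largest rises were Serpinb1a, an inhibitor of neutrophil proteases (2.16), Gas1, a hedgehog co-receptor (1.60), Anpep, aminopeptidase N (1.59), A4galt, a glycolipid enzyme (1.57), Itgbl1 (1.56) and Ly6c2 (1.56). Each of these 6 lost its call without 4 or more of the 6 arrays, with adjusted p up to 0.256. Of 24 immediate early genes Nr4a2, an orphan nuclear receptor, rose (0.75, adjusted p = 0.0244), against 1.54% of all tested genes. The list's median was -0.07, and the call of Nr4a2 was lost without replicate 1 or 2 of either day. With the block 1 more member fell.

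Genes of the bone cell's own programme were called at about the share of all tested genes (2.77%), with 1 of 26 in the early and late lists. Of 11 tested early bone genes 0 passed in either direction (median 0.16), and 0 passed with the block or when 1 array was left out. Alpl, alkaline phosphatase, read 5.62, 7.30 and 7.62 on day 2 and 7.35, 6.64 and 8.58 on day 5, so the days overlapped (0.68 ± 0.77 SE, adjusted p = 0.768). Sp7, osterix, a transcription factor required for osteoblasts, read 7.90, 8.58 and 8.66 and then 7.71, 7.47 and 7.80 (-0.72 ± 0.59 SE, adjusted p = 0.638). Pth1r, the parathyroid hormone receptor, differed by 0.26 (adjusted p = 0.822). Of 15 late bone and mineral genes 1 rose, Pdpn, a membrane glycoprotein of early osteocytes and other stromal cells, from 10.62, 10.77 and 10.34 to 11.61, 12.12 and 11.18 (1.06, adjusted p = 0.0166, lost without day 2 replicate 3 or day 5 replicate 2), and with the block 2 rose. Ibsp, bone sialoprotein, was low except in replicate 3, at 4.34, 4.20 and 5.32 and then 4.33, 4.34 and 5.73. Bglap, osteocalcin, and Dmp1 lay below or close to the medians of their arrays on both days, at 4.12 to 4.61 and 3.31 to 3.74, so these late bone genes were not shown to be present on day 2 or day 5. Runx2 and Spp1 had no row of their own and are not analysed here. Of 17 progenitor genes of periosteum and sutures 2 rose, Axin2 and Thy1 (0.52, adjusted p = 0.0483), and with the block 5 did, which added Cd34, Pdgfra and Prrx1. Over all tested genes 1.54% rose, and 2.76% with the block.

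The cartilage genes Col2a1 and Acan were bright on day 2. Col2a1, the main cartilage collagen, read 10.48, 10.48 and 11.61 and then 9.95, 9.27 and 10.96 (-0.80, adjusted p = 0.617). Acan, aggrecan, the main cartilage proteoglycan, read 9.52, 8.59 and 9.75 and then 6.95, 5.91 and 7.24. The 3 pairs moved alike while the replicates differed on both days, and Acan did not pass without the block (-2.59 ± 0.76 SE, adjusted p = 0.0767) but passed with it (adjusted p = 0.00272). Of 17 tested cartilage genes 0 passed in the fit without the block, where 2.77% of all tested genes did, and the list's median was -0.13.

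All 18 tested genes of cholesterol synthesis and uptake were positive, from 0.38 to 0.99, with a median of 0.69, and 0 passed. With the block 3 did (Hmgcs1, Lss and Nsdhl), without day 5 replicate 1 there were 5, and in the labelled wild type 9 of the 18 rose over the same interval. Nsdhl read 8.79, 9.15 and 9.13 on day 2 and 9.52, 10.11 and 10.38 on day 5 (0.99, adjusted p = 0.0675, with the block 0.0435). The sterol regulatory element, searched as TCACNCCAC, was found in 1 of the 14 promoter windows of that list, that of Hmgcs1, against 1.47% of tested genes. Of 34 cell division genes 33 were negative, the median was -0.42, and 0 passed with or without the block. Their mean level was 8.22, 8.73 and 9.18 on day 2 and 8.38, 8.35 and 8.14 on day 5, so it was lower on day 5 in replicates 2 and 3 and higher in replicate 1. All 23 tested interferon-stimulated genes were positive, with a median of 1.16. The list's mean level went from 5.49, 5.66 and 5.16 to 5.73, 7.82 and 6.62, so that replicate 2 moved most and replicate 1 least. Usp18, named here after its values were seen, read 4.64, 5.35 and 4.06 and then 4.73, 9.06 and 6.60 (2.12, adjusted p = 0.367). The 1 that passed was Ddx58, a sensor of viral RNA, which went from 7.58, 7.54 and 7.34 to 8.20, 9.05 and 8.64 (1.14, adjusted p = 0.0384, lost without 5 of the 6 arrays), and with the block 4 passed. Over all tested genes 2.77% passed, and 4.67% with the block. Of 18 genes of glucose uptake and glycolysis 0 passed (median -0.15), while with the block Slc2a1, a glucose carrier, and Slc16a3, a lactate carrier, fell. The plot of all lists sets these shifts side by side.

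**Figure D3:**
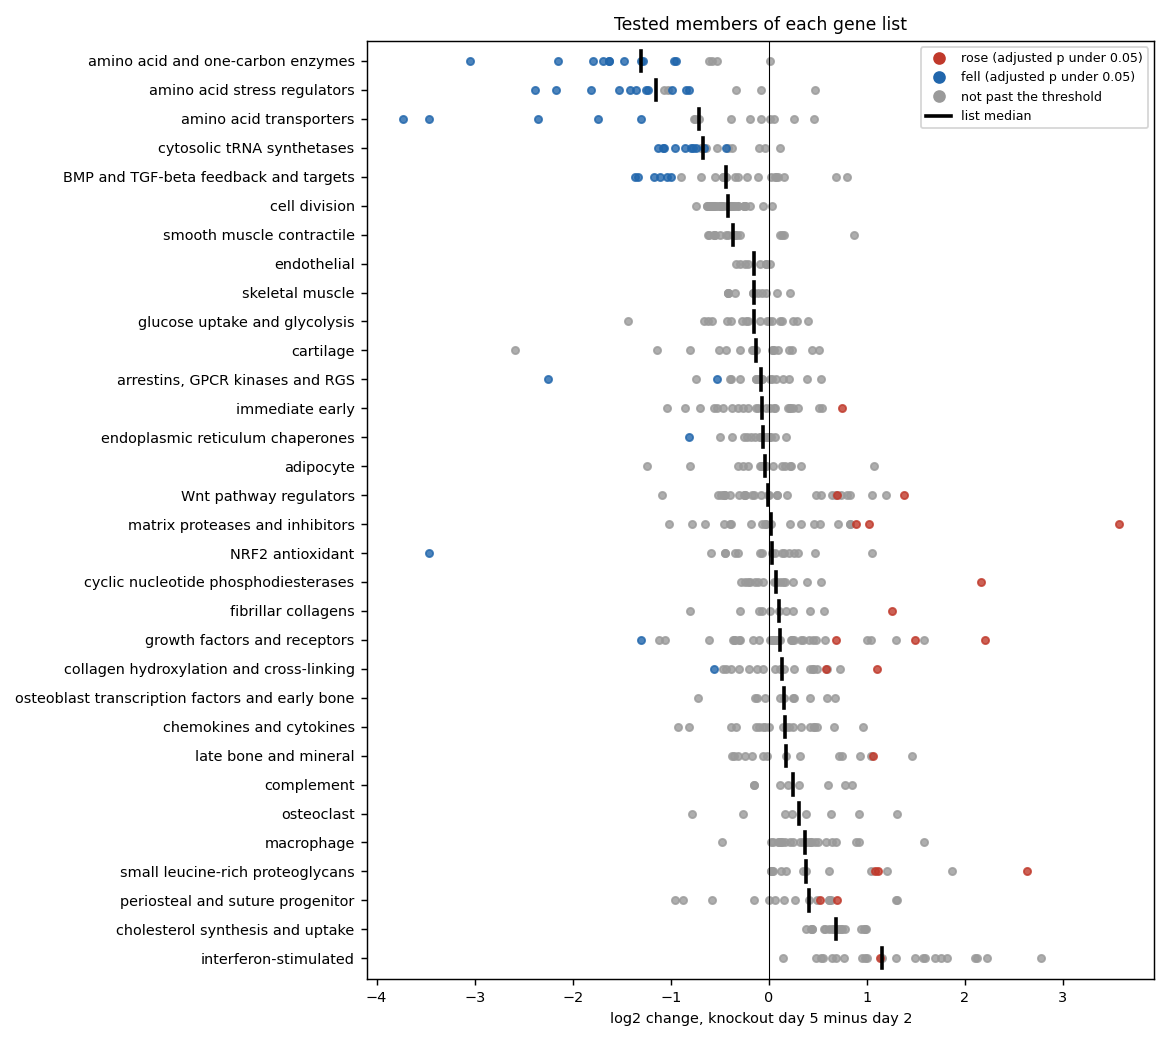
Log2 change from day 2 to day 5 in the labelled knockout (x axis) for the tested members of each of the 32 gene lists (rows, ordered by median). Points are genes, red where they rose and blue where they fell at an adjusted p under 0.05, and black ticks are list medians; the 4 amino acid lists have the lowest medians (-0.67 to -1.30) and the interferon-stimulated list the highest (1.16).

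Markers of other cells that a calvarial digest can hold were also read, and their part in the results above was not tested. Of 25 tested macrophage genes 0 passed, 24 were positive and the median was 0.37. Their mean level was 4.77, 5.24 and 4.57 on day 2 and 4.98, 6.09 and 4.67 on day 5, highest in replicate 2 on both days, as was the interferon-stimulated list. Adgre1, a defining macrophage gene, read 3.61, 4.90 and 3.69 and then 4.82, 5.96 and 4.17 (0.92, adjusted p = 0.714). Of 8 osteoclast genes 0 passed (median 0.31), and Acp5, the osteoclast acid phosphatase, lay at 0.92 (adjusted p = 0.157, with the block 0.0141). The 8 endothelial, 12 skeletal muscle, 17 smooth muscle and 19 adipocyte genes had medians of -0.15, -0.15, -0.36 and -0.04, and 0 of them passed. Tagln, a smooth muscle and myofibroblast gene, was bright on both days, at 12.08, 12.17 and 12.40 and then 11.96, 11.51 and 11.31 (-0.62, adjusted p = 0.158). Pparg, the regulator of fat cell formation, went from 5.67, 6.49 and 7.10 to 5.10, 5.31 and 5.13 (-1.24, adjusted p = 0.11, with the block 0.0441). Complement genes and the chemokines and cytokines had 0 of 8 and 0 of 20 past the threshold, with medians of 0.25 and 0.17. Lif, a cytokine of the interleukin-6 family, lay just outside it (-0.81, adjusted p = 0.0522, with the block 0.0215). Over all tested genes 2.77% passed, so counts of 0 in lists of 8 to 25 genes say little about these cells.

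The same interval in the labelled wild type, which uses other arrays, called 826 genes (5.55%), of which 425 rose (2.85%) and 401 fell (2.69%). Of the 412 genes called in the labelled knockout, 315 were also called there, all 315 in the same direction, which is 76.5% of the knockout calls and 38.1% of the wild-type calls. The sign was shared by 410 of the 412, against 72.7% of all tested genes. The exceptions were Ankrd34a (0.78 against -0.04) and Olfr1193 (-0.81 against 0.01). Across the 14892 genes the changes of the labelled genotypes correlated at 0.82, where genes are not independent of each other. The amino acid genes fell in both, with 37 falls and a median of -0.84 in the labelled knockout and 39 falls and a median of -0.90 in the labelled wild type. Cth changed by -3.05 and -3.16, Slc7a3 by -3.73 and -3.93, and Slc7a11 by -3.47 and -3.13.

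The difference of the changes between the labelled genotypes was tested gene by gene, and 0 of 14892 passed (limma, smallest adjusted p = 1). At an unadjusted p under 0.05 there were 184 genes, and 0 passed in each alternative that was run. A gene called in only one label is therefore not shown to differ. Hgf was among the 5 genes with the smallest p for the difference (adjusted p = 1, limma), with a rise of 1.49 in the labelled knockout and of 3.25 in the labelled wild type, where it went from 5.53 to 8.78. Among the 412 genes called in the labelled knockout 206 had the larger absolute change in the labelled wild type, and among the 826 called in the labelled wild type 707 did. Each of these shares is shaped by the label in which the genes were called. The scatter of the changes in the labelled genotypes shows where the leading genes lie.

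**Figure D4:**
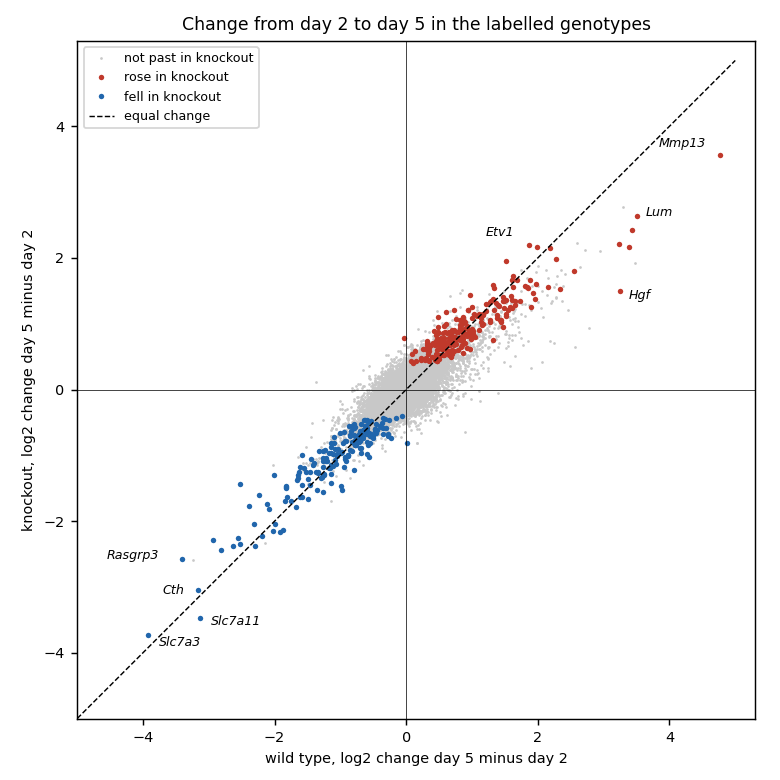
Log2 change from day 2 to day 5 in the labelled wild type (x axis) and the labelled knockout (y axis), 1 point for each of 14892 tested genes. Red and blue points rose or fell in the labelled knockout, grey did not pass there, and the dashed line marks equal change; Slc7a3 and Cth lie near the line and Hgf to the right of it (3.25 and 1.49).

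Levels on later days are given beside these without a test, since the comparisons would share arrays. In the labelled knockout Slc7a3 averaged 3.93 on day 10 and 4.65 on day 28, against 8.35 on day 2 and 4.63 on day 5. Cth averaged 5.25 and 5.13 on those days, Trib3 5.29 and 5.64, and Slc7a11 4.01 and 5.29, so that these 4 stayed nearer to day 5 than to day 2. Of all 37 genes of the amino acid lists that fell, 2 had a day 28 mean nearer to day 2, Vldlr (7.91, 6.10, 6.49 and 7.50 on days 2, 5, 10 and 28) and Cebpg (8.18, 7.34, 7.19 and 7.91), and 0 had one at or above day 2. The spread of the 3 day 28 arrays differed between genes, with an SD of 1.48 for Aldh1l2, 1.31 for Vldlr and 1.06 for Slc7a11, but 0.07 for Cebpg and 0.05 for Cth. Where it is wide, the mean does not describe each replicate. Angpt1 averaged 9.42 and 9.52 on days 10 and 28, Rspo2 10.08 and 10.59 and Dpt 9.66 and 10.89, above their day 5 levels. Mmp13 averaged 11.99 and 11.52, close to day 5. Plat averaged 8.53 and 8.15 on days 10 and 28, near its day 2 level, and Axin2 6.03 and 5.93. Ibsp averaged 4.80 on day 5, 7.35 on day 10 and 11.06 on day 28, and Dmp1 3.55, 4.65 and 6.59.

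**Figure D5:**
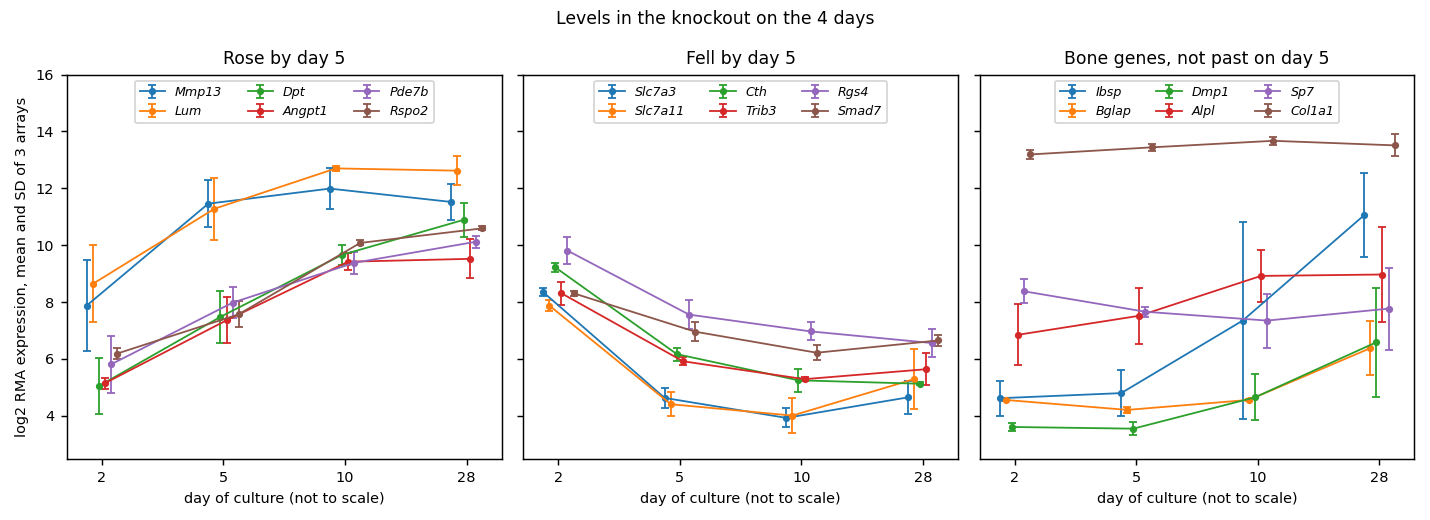
Mean log2 RMA expression with SD over 3 arrays (y axis) in the labelled knockout on days 2, 5, 10 and 28 (x axis, not to scale) for genes that rose by day 5 (left), fell by day 5 (middle) or belong to the bone programme and did not pass on day 5 (right). Slc7a3, Slc7a11, Cth and Trib3 stay low after day 5, while Ibsp averages 4.80 on day 5 and 11.06 on day 28.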

How the data were processed

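The authors deposited log2 expression values for 24 arrays. Per the submitters' processing notes the tools were Affymetrix Expression Console and RMA, with versions and the array library not given in the sources used here. RMA removes shifts common to most probes. Values ran from 0.313 to 14.08, array medians from 4.55 to 4.72, and knockout arrays of a day correlated at 0.972 to 0.983. Depth is not a property of arrays, and the number of arrays limits precision. Of 41345 transcript clusters, 23521 named exactly 1 gene symbol, 1814 several and 16010 none. The brightest cluster per gene gave 22180 genes, and the 14892 at or above their array's median in at least 3 of 24 arrays were tested.

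A model with a mean for each of the 8 groups was fitted to 24 arrays with limma 3.58.1 in R 4.3.3 (16 residual and 4 prior degrees of freedom). P-values are two-sided, with Benjamini-Hochberg adjustment over all tested genes, and a gene is called at an adjusted p under 0.05. The script was tested on simulated data. Fold changes are powers of 2 of log2 differences.

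Replicate numbers recur in the labels. The arrays' deviations from group means correlated at 0.20, 0.41 and 0.15 for equal numbers in the knockout (other pairs -0.28 to 0.06) and at 0.25, 0.26 and 0.35 in the wild type, so arrays of equal number were blocked together. The titles do not say whether equal numbers on different days mark the same preparation. The blocked fit is given where it changes a call or a count.

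The comparison and the 32 gene lists (649 symbols, 601 with a row, 575 tested) were chosen with earlier results of these data known. The genes named were the 20 called genes with the greatest rise and the 20 with the greatest fall whose arrays did not overlap, up to 6 called members of each list (or 3 members if none passed), the 5 smallest p of the genotype difference, and fixed markers. Remaining called members of the amino acid lists are named in full; others outside the rule were chosen after their values were seen. Alternatives were no filter, a filter on the 6 arrays, 2 renormalizations, mean rows, another variance prior, the block, fewer arrays, and 1 array left out. Promoter sequences are from RefSeq, assembly GRCm38.p6.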

Additional observations from a re-analysis of the deposited data

How the results depend on the processing

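The number of genes called depended most on which arrays were fitted, while 0 of the 78 named called genes changed direction in the alternatives run. Changes of sign among named genes that did not pass were not counted. With 1 array left out, the count ran from 124 to 408 genes in all, from 57 to 232 higher, from 67 to 176 lower and from 79 to 223 at 2-fold or more. The fit on the 6 arrays alone called 49 (15 higher, 34 lower, 45 at 2-fold or more), 47 of them shared with the 412. The replicate block, from the pairing seen in the data, gave 695 (411 higher, 284 lower), with 408 of the 412 kept and Csad, Gpr176, Mindy2 and Pld2 lost; it ended 0 calls of named genes. The replicate number as a random block gave 654 (367 higher, 287 lower). The genotype difference stayed at 0 genes throughout, 0 to 0 with 1 array left out. Without a filter 313 genes were called, with a common median 385, with quantile normalization again 386, with mean rows 409, with a filter on the 6 arrays 444 and with a trended prior 425. Of 78 named called genes, 36 were called in each fit with 1 array left out. Of the 32 gene lists, 13 had a count of called members over 1.5 times away from the reported one with the fixed block and 15 did with the 6 arrays alone. No detection call was used, and 20 of the 412 had a day with all values below their array's median. Just inside the threshold lay Hbegf, Mindy2 and Mxra7, and just outside it Fndc10, Sgf29 and Rnh1 (adjusted p = 0.0493, 0.0495, 0.0495, 0.0501, 0.0501 and 0.0501).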

Other observations

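Sex-linked genes were read as a check of the mix of pups in a preparation. Xist, expressed from the inactive X chromosome of females, read 8.95, 9.06 and 8.17 on day 2 and 8.65, 9.11 and 7.72 on day 5 in replicates 1 to 3 of the labelled knockout. The Y-linked gene Kdm5d read 5.89, 5.46 and 4.43 and then 5.73, 5.20 and 4.52, and Eif2s3y read 7.12, 6.76 and 5.82 and then 6.81, 6.83 and 5.59. Replicate 3 was thus the lowest on both days for all 3 genes, and none of them passed between the days (adjusted p = 0.968, 0.982 and 0.979, limma).

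The genes with the smallest p for the difference between the labelled genotypes were Hgf and 4 others, and 0 passed. Mrm3, an RNA methyltransferase gene of mitochondria, differed by 0.06 in the labelled knockout and by -0.76 in the labelled wild type (adjusted p of the difference 1, limma). Clec2m lay at -0.22 and 0.59, Saxo2 at -0.29 and 0.38, and the receptor kinase gene Alk at -0.26 and 0.60, with an adjusted p of 1 for each, and the values of Saxo2 and Alk in the labelled knockout lay below the medians of their arrays on day 5.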
